A study of Mus musculus with 4 samples.

Results

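Eif5a, Eif5a2, Dhps and Dohh encode a translation factor, its paralog and the pair of enzymes that modify both. They were chosen by name for their link to spermidine (SD), and are 4 of the 18674 gene names of the table and 12 of its 23750 rows. Each row is a RefSeq transcript. Eif5a has 9 rows, each of the others has 1 row, and the level of a gene is the mean of its rows. Levels are in RPKM, which divides the reads of a transcript by its length and by the total of its library, so they can be compared between genes of different length.

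RNA of the lumbar spinal cord was sequenced in 4 libraries, 1 for each of wild type (WT) mice given vehicle (PBS), WT mice given SD (WT + SD), and the same pair of treatments in G93A mice (G93A vehicle, G93A + SD). Where 4 values follow each other without names, the WT libraries come first and vehicle stands before SD within each genotype. G93A mice carry a human SOD1 transgene with an ALS mutation, from the high-expresser strain. WT mice lack the transgene. According to the methods, the mice were males from breeding with B6/SJLF1 females, killed at 100 days of age after 30 days of treatment, and the sample labels give 4 treatments a week. The methods state an intraperitoneal dose of 5 mg/kg, with saline as the vehicle, for courses that began at 30 and 70 days of age, and no dose for these libraries in particular. How many animals went into each library is not stated in the sources used here. With 1 library per condition there was no test between conditions, and every difference below is a description of these libraries. A difference of at least 1.5-fold on the scale of log2(RPKM + 0.1) was counted as higher or lower. The background was the 12987 gene names with a mean of at least 1 RPKM, and all 4 genes were among them.

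eIF5A is a small protein that binds the ribosome and helps it where peptide bonds form slowly, as in runs of proline, and at the end of translation. It works only after 1 of its lysines has become hypusine, an amino acid known from no other protein family. Deoxyhypusine synthase (Dhps) moves the aminobutyl part of spermidine onto that lysine, and deoxyhypusine hydroxylase (Dohh) then adds a hydroxyl group. Eif5a is used by nearly all cells, while its paralog Eif5a2 is known mainly from brain and testis. The question is whether RNA of the factors and enzymes differed between G93A and WT cord, and between mice given the substrate spermidine or vehicle.

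The sequences around the modified lysine are shown because they carry the site that spermidine feeds into and that the paralogs share. They were read from GENCODE M21 transcripts on GRCm38, run 5′ to 3′ along the coding strand over codons 40 to 60 with the start codon counted as 1, and the capitals mark the lysine codon 50. Each stretch of 63 bases begins in exon 2, which holds the lysine codon, and ends in exon 3. The Eif5a stretch lies within chr11:69918007-69919198 on the minus strand, and the Eif5a2 stretch within chr3:28782169-28782742 on the plus strand.
Eif5a: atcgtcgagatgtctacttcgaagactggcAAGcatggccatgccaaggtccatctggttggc
Eif5a2: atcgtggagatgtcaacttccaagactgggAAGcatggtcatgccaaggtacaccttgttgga
The stretches differ at 9 of 63 bases, and all 21 codons encode the same residue in both genes. Over the 153 codons compared without gaps, 51 were identical, 75 differed but encoded the same residue, and 27 encoded another residue, so 72.3% of bases and 82.4% of encoded residues were the same. The run of shared residues around the lysine extends from codon 19 to codon 88, or 70 codons.

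In the genome, Eif5a lies on chromosome 11 (69916714 to 69921958, minus strand) with 6 exons and 154 codons. Eif5a2 lies on chromosome 3 (28781276 to 28798846, plus strand) with 5 exons and 153 codons, and its transcript of 5027 bases carries 4391 bases after the stop codon, against 633 bases in an Eif5a transcript of 1343 bases. Dhps lies on chromosome 8 (85071757 to 85075162, plus strand) with 9 exons and 369 codons, and Dohh on chromosome 10 (81384428 to 81388352, plus strand) with 5 exons and 302 codons. None of the 4975 windows of 53 bases, the read length in the methods, in Eif5a2 occurred in the transcripts of another gene, Eif5a included. In Eif5a, 93 of 1291 windows (7.20%) were also found in processed pseudogenes. In Dhps, 76 of 1281 windows (5.93%) were shared with Wdr83 on the opposite strand, and no source says whether reads were counted by strand. In Dohh, 921 of 1392 windows (66.2%) were shared with Gm48551, a gene model on the same strand that is not listed in the table. How shared reads were assigned is unknown and may affect the Dohh level.

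Low values on short transcripts gave an estimated depth of 7.95 to 8.34 aligned gigabases per library. The number of reads is not given, because on longer transcripts the commonest low value was 216 aligned bases, which does not match the stated read length of 53 bases, so the scale of this estimate is uncertain. General neuron markers were present in all libraries, with a summed level of 1104 to 1892 RPKM over 6 genes, and the 3 skeletal muscle markers together were at 0.276 to 0.350 RPKM. The libraries differed in markers of other cells. Microglia markers summed to 90.5 and 80.4 RPKM in the WT libraries and to 536 and 525 RPKM in the G93A libraries, and astrocyte markers to 990, 929, 3066 and 3639 RPKM in the same order. Gfap carried much of the astrocyte sum, at 441, 386, 2269 and 2707 RPKM. At least 1.5-fold higher in G93A were 6 of 7 microglia markers in both comparisons, and 4 of 6 astrocyte markers under vehicle and 5 under SD, beside 13.1% of all gene names under vehicle and 15.8% under SD. The 3 blood markers summed to 17.8, 35.7, 26.5 and 28.8 RPKM, and all 3 were at least 1.5-fold higher in WT + SD than in WT vehicle, beside 0.732% of gene names, as were 2 of 3 in G93A vehicle against WT vehicle. The 6 oligodendrocyte markers summed to 8570, 8867, 6997 and 6445 RPKM, and 5 of 6 had a negative difference in both genotype comparisons. Of all gene names, 56.4% had a positive difference under vehicle and 55.1% under SD.

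Eif5a was the most abundant of the 4 genes in every library. WT cord had 79.7 RPKM with vehicle and 77.1 with SD, and G93A cord had 90.0 with vehicle and 87.2 with SD. Both G93A libraries were above both WT libraries, as for 43.7% of all gene names, and the highest level was 1.17 times the lowest. The log2 difference was 0.18 under vehicle and 0.18 under SD, and 64.2% and 62.8% of gene names had a lower difference. The 9 Eif5a rows lay between 74.7 and 87.2 RPKM in the WT vehicle library and between 84.4 and 98.5 RPKM in the library of G93A vehicle. They count largely the same reads and are not replicates.

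Eif5a2 had the widest gap between the genotypes of the 4 genes, and it was the only one past 1.5-fold. WT cord had 44.7 RPKM with vehicle and 49.05 with SD, against 27.9 with vehicle and 23.2 with SD in G93A cord. Both G93A libraries lay below both WT libraries, which was so for 32.6% of all gene names, and the gap between the genotypes was wider than the gap within either. An estimated 1.79, 2.04, 1.15 and 0.973 aligned megabases stood behind these levels, in the same order. Eif5a2 was 1.60-fold lower in G93A vehicle than in WT vehicle (log2 difference -0.68) and 2.11-fold lower in G93A + SD than in WT + SD (log2 difference -1.08). Under vehicle 4.34% of gene names were at least 1.5-fold lower and 17.4% differed in either direction, and under SD these shares were 7.85% and 23.7%. Both comparisons put Eif5a2 toward the lower end of all gene names, since 2.33% had a more negative difference under vehicle and 1.17% under SD. It was at least 1.5-fold lower in both, as were 3.29% of gene names.

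**Figure D1:**
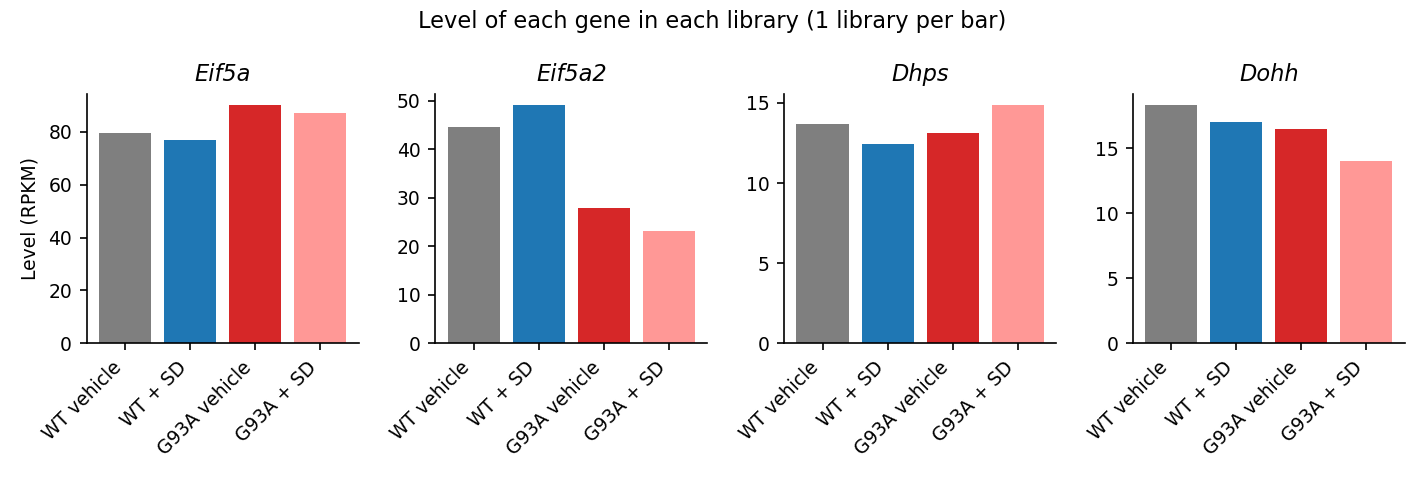
Level in RPKM (vertical axis, starting at 0 and scaled for each gene) of Eif5a, Eif5a2, Dhps and Dohh in the 4 libraries, 1 bar per library and no error bar because each condition has 1 library. The Eif5a2 bars stand at 44.7 and 49.05 in the WT libraries and at 27.9 and 23.2 in the G93A libraries, while the highest and lowest bars of Eif5a, Dhps and Dohh are within 1.30 times of each other.

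Dhps, which uses spermidine directly, was near the same level in all libraries. It stood at 13.7 RPKM with vehicle and 12.4 with SD in WT, and at 13.1 with vehicle and 14.8 with SD in G93A. The genotypes overlapped, since the lowest level was in WT + SD and WT vehicle lay between the G93A libraries. The log2 difference between G93A and WT was -0.058 under vehicle and 0.25 under SD, and neighbouring levels in the order differed by 1.04 to 1.09 times. These values rest on an estimated 0.137 to 0.165 aligned megabases per library, far fewer than those of Eif5a2.

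Dohh, which completes hypusine, was at 18.3 RPKM with vehicle and 17.0 with SD in WT cord, and at 16.4 and 14.0 in G93A cord. Both G93A libraries were below both WT libraries, as for 32.6% of all gene names, by a log2 difference of -0.15 under vehicle and -0.27 under SD. Neither difference reached 1.5-fold, and G93A vehicle and WT + SD were 1.03 times apart. An estimated 0.169 to 0.210 aligned megabases per library stood behind the Dohh levels. Dhps was below Dohh in WT vehicle, WT + SD and G93A vehicle, with ratios of 0.748, 0.732 and 0.799, and the ratio was 1.06 in G93A + SD.

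Between mice given SD and mice given vehicle, none of the 4 genes reached 1.5-fold in either genotype. Of all gene names, 1.89% did in WT (0.732% higher, 1.16% lower) and 2.17% in G93A (1.24% higher, 0.932% lower). In WT the log2 difference of WT + SD from WT vehicle was -0.049 for Eif5a, 0.13 for Eif5a2, -0.13 for Dhps and -0.10 for Dohh. All 4 lay between the 5th and the 95th percentile of all gene names (-0.29 and 0.26). In G93A the difference of G93A + SD from G93A vehicle was -0.045 for Eif5a, -0.26 for Eif5a2, 0.18 for Dhps and -0.23 for Dohh. These too lay between the 5th and 95th percentile (-0.31 and 0.34). In the same G93A comparison all 5 motor neuron markers with a mean of at least 1 RPKM had a negative difference (median -0.45). Of these, 2 were at least 1.5-fold lower, beside 0.932% of gene names. A negative difference was also found for 5 of 6 general neuron markers, and 6 of 6 astrocyte markers had a positive one. Of the other markers, 4 of 4 endothelial genes (1 at least 1.5-fold lower) and 5 of 6 oligodendrocyte genes had a negative difference. Over all gene names, 52.1% had a positive difference in this comparison. With SD in WT the same 5 motor neuron markers also had a negative difference (median -0.18), as had 4 of 6 general neuron and 4 of 6 astrocyte markers. Over all gene names, 54.9% had a positive difference there. The part of these markers in the Eif5a2 values was not tested. Eif5a and Dohh were lower with SD in both genotypes, while Eif5a2 and Dhps had differences of opposite sign in WT and G93A, as did 45.8% of gene names. The SD comparisons share their libraries with the genotype comparisons, so the wider genotype gap of Eif5a2 under SD and its opposite SD differences are the same 4 values read in other pairs.

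**Figure D2:**
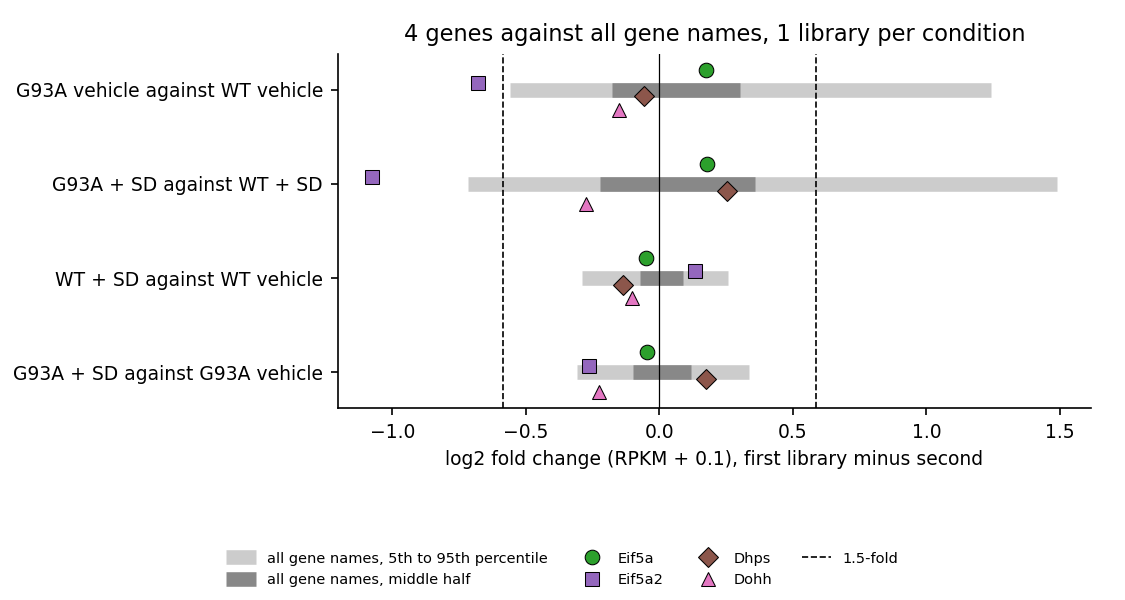
Log2 difference of RPKM + 0.1 (horizontal axis) for Eif5a, Eif5a2, Dhps and Dohh in each of the 4 comparisons, over bars for the 12987 gene names from the 5th to the 95th percentile (light) and from the lower to the upper quartile (dark), with dashed lines at 1.5-fold. Eif5a2 at -0.68 and -1.08 in the genotype comparisons is the only symbol beyond a dashed line and beyond the light bar.

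The balance of the paralogs differed between genotypes, mostly through Eif5a2. It was 1.60-fold lower in G93A under vehicle and 2.11-fold lower under SD, while Eif5a was 1.13-fold higher in both comparisons. Eif5a2 made up 35.9% (vehicle) and 38.9% (SD) of the summed RPKM of Eif5a and Eif5a2 in WT, and 23.6% and 21.0% in G93A. Multiplied by transcript length, which weights the longer Eif5a2 transcript as reads do, the shares were 67.8%, 70.5%, 53.7% and 49.9%. The WT libraries were both above the G93A libraries on either scale. The sum of the paralogs differed less, at 124 and 126 RPKM in the WT libraries and 118 and 110 RPKM in the G93A libraries. Relative to the synthase, the summed factors were 9.10 and 10.1 times Dhps in the WT libraries and 8.98 and 7.44 times in the G93A libraries. Relative to Dohh the ratios were 6.81, 7.42, 7.17 and 7.86, and here the genotypes overlapped. RNA levels do not show how much of the protein carries hypusine, which was not measured here.

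Eukaryotic elongation factor 1A, which brings charged tRNA to the ribosome, and the helicase eIF4A, which unwinds mRNA for initiation, also have a paralog pair each. These pairs were picked after their values had been seen. Eef1a2, the form of neurons and muscle, made up 50.3% and 46.4% of Eef1a1 and Eef1a2 in WT cord and 28.1% and 20.9% in G93A cord. Eef1a1 was at 291, 316, 523 and 622 RPKM and Eef1a2 at 294, 273, 204 and 164 RPKM in the same order, so both members differed, in opposite directions. For eIF4A, Eif4a2 made up 93.8%, 94.4%, 89.3% and 87.7% of Eif4a1 and Eif4a2. Here the second paralog stayed the major form in every library.

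**Figure D3:**
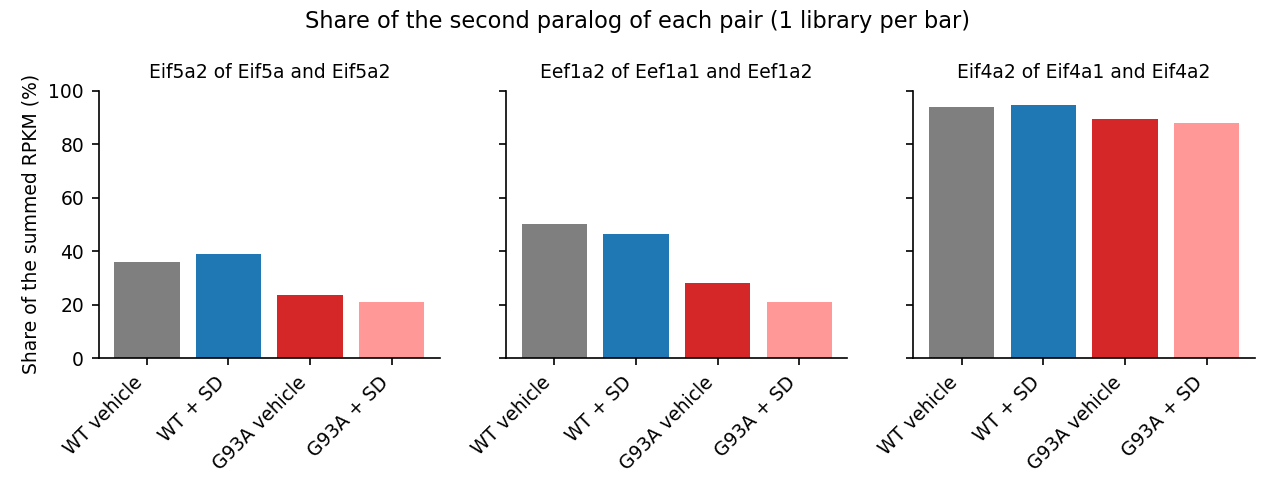
Share of the second paralog in the summed RPKM of each pair (vertical axis, percent) in the 4 libraries, 1 bar per library without replicates. Eif5a2 is at 35.9% and 38.9% in the WT libraries and at 23.6% and 21.0% in the G93A libraries, and the Eef1a2 share is also lower in both G93A libraries.

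Neuron markers were lower in the G93A libraries as well, and in bulk tissue fewer cells of a type cannot be told apart from less RNA per cell. All 6 general neuron markers had a negative log2 difference in both genotype comparisons, with a median of -0.38 under vehicle and -0.49 under SD against 0.050 and 0.047 over all gene names. Their summed level was 1892 and 1891 RPKM in WT cord against 1270 and 1104 RPKM in G93A cord. Snap25 made up most of this sum, at 1268 and 1292 RPKM in WT and 782 and 661 RPKM in G93A. Of the 6 markers, 1 was at least 1.5-fold lower under vehicle and 2 under SD, where 4.34% and 7.85% of all gene names were. Among 7 motor neuron markers, 5 had a mean of at least 1 RPKM, all 5 had a negative difference in both comparisons, 2 of them at least 1.5-fold lower under vehicle and 4 under SD (4.34% and 7.85% over all gene names), and the median was -0.58 under vehicle and -0.80 under SD. Mnx1 and Isl1, transcription factors of motor neurons, were under 1 RPKM. Mnx1 also had a negative difference (-0.92 under vehicle and -1.27 under SD), while Isl1 had a positive one (0.058 and 0.083).

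Relative to 5 of the 6 general neuron markers, Eif5a2 was lower in both G93A libraries than in both WT libraries, and relative to Snap25 the genotypes overlapped. Against Snap25, a protein of the presynaptic release machinery, Eif5a2 was 3.52% and 3.797% in the WT libraries and 3.56% and 3.51% in the G93A libraries, so the highest ratio was 1.08 times the lowest. Against Rbfox3, the nuclear marker NeuN, it was 211%, 241%, 195% and 194% in the same order. The 4 libraries were farther apart against Map2, a dendritic microtubule protein, with 30.7%, 32.9%, 22.9% and 19.8%, and farthest against Syt1, a calcium sensor of synaptic vesicles, with 93.1%, 106%, 75.1% and 56.3%. Tubb3, a neuronal tubulin, gave 22.7%, 28.3%, 18.2% and 18.6%, and Stmn2, a microtubule regulator of axons, gave 21.1%, 23.3%, 17.2% and 15.7%. Of the 5 motor neuron markers, Slc5a7 and Prph also gave lower ratios in both G93A libraries, and the genotypes overlapped for Chat and Slc18a3. Against Nefh, the heavy neurofilament of large axons, the order turned for this 1 marker of 5, with 13.7% and 15.7% in the WT libraries and 17.4% and 23.4% in the G93A libraries. The part of neuron content in the Eif5a2 difference was not tested.

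**Figure D4:**
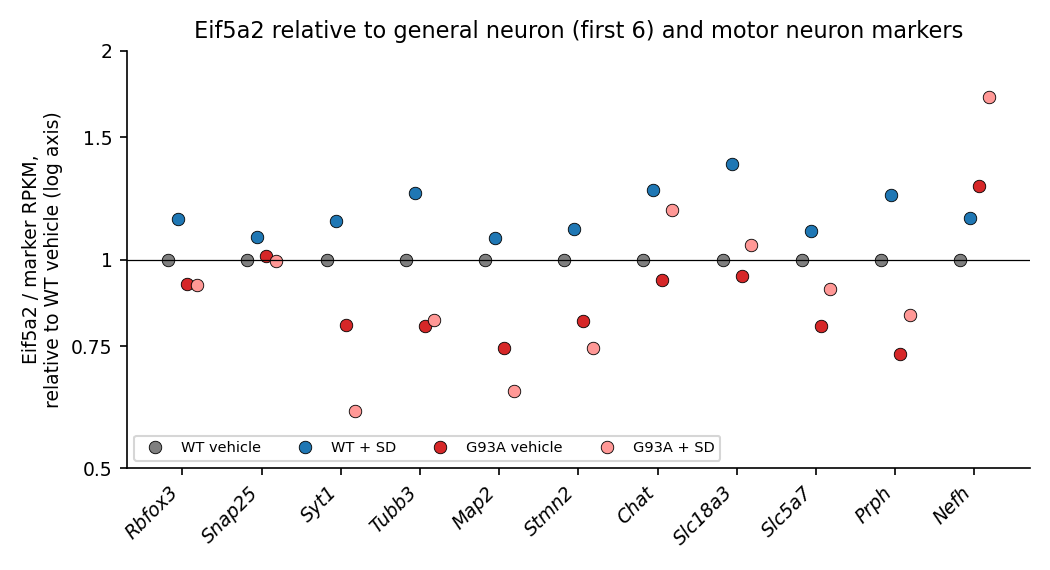
Ratio of Eif5a2 to each of 6 general neuron markers (Rbfox3 to Stmn2) and 5 motor neuron markers (Chat to Nefh), divided by that ratio in WT vehicle and drawn on a log axis, 1 point per library. The points nearly coincide for Snap25, where the highest ratio is 1.08 times the lowest, and spread most for Syt1, where it is 1.88 times.

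The other translation factors were mostly on the opposite side of Eif5a2. Of 49 factors, all with a mean of at least 1 RPKM, 42 had a positive difference under vehicle and 36 under SD, with medians of 0.18 and 0.13. Over all gene names 56.4% and 55.1% were positive, with medians of 0.050 and 0.047. Under vehicle 2 were at least 1.5-fold higher and 0 lower, beside 13.1% and 4.34% of all gene names. Those 2 were Eef1a1 (log2 difference 0.84) and Eif4a1 (0.64). Under SD 3 were higher and 1 lower, beside 15.8% and 7.85% of gene names. The 3 higher ones were Eef1a1 (0.98), Eif4a1 (0.88) and Eif3j1 (5.02). The lower one was Eef1a2 (-0.73 under SD and -0.53 under vehicle), so Eif5a2 was below all 49 in both comparisons. Eef2, the translocase of elongation, was at 294, 295, 303 and 289 RPKM and differed by less than 1.5-fold throughout. Eif3j1 varied from 0.176 RPKM in WT + SD to 8.85 RPKM in G93A + SD, and the vehicle libraries had 3.18 RPKM (WT) and 3.75 RPKM (G93A). It has a near-identical copy between which reads may be split, so its values are uncertain. It was the only factor beyond 1.5-fold in the SD comparisons.

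**Figure D5:**
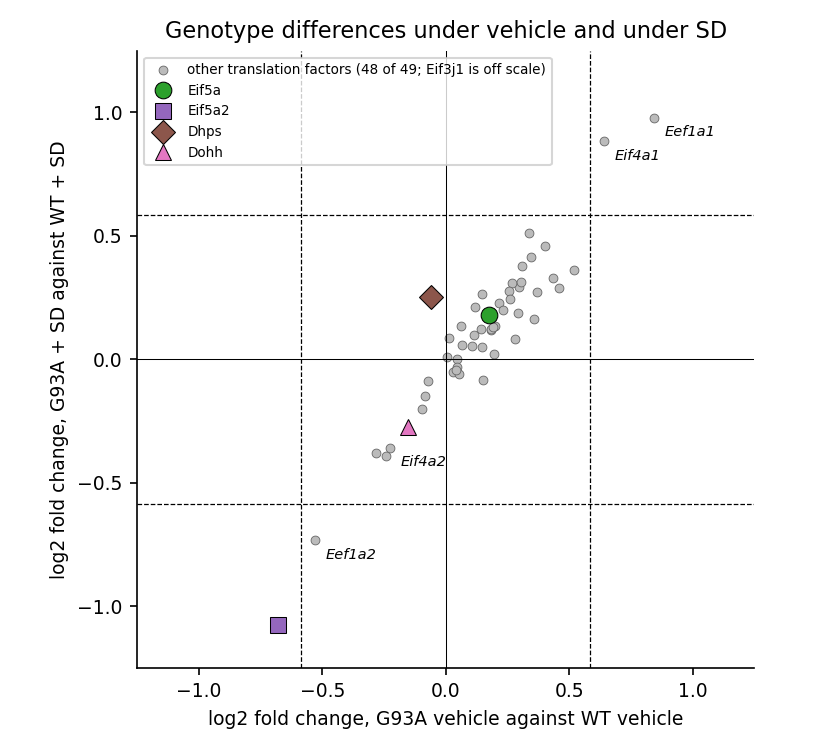
Log2 difference of RPKM + 0.1 between G93A and WT under vehicle (horizontal axis) and under SD (vertical axis) for Eif5a, Eif5a2, Dhps, Dohh and 48 of 49 other translation factors, 1 symbol per gene, with dashed lines at 1.5-fold. The 2 comparisons share no library, Eif5a2 is the lowest symbol on both axes, and Eif3j1 is beyond the vertical axis.

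Genes whose products act on eIF5A gave a median log2 difference of 0.058 under vehicle and 0.035 under SD over 5 genes. These were the exporter Xpo4, the acetyltransferase Kat2b, the deacetylases Hdac6 and Sirt2, and the polyamine acetyltransferase Sat1, which can also acetylate hypusine. Sat1 was the 1 member of 5 at least 1.5-fold higher in both genotype comparisons, as were 11.7% of all gene names, and 0 were lower in either. WT cord had 21.6 and 21.3 RPKM of Sat1 and G93A cord 47.3 and 60.1 RPKM, a log2 difference of 1.13 under vehicle and 1.497 under SD. None of the 5 reached 1.5-fold with SD in either genotype, where 1.89% (WT) and 2.17% (G93A) of all gene names did.

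Among 21 genes of polyamine synthesis and breakdown, which set the supply of spermidine, 19 had a mean of at least 1 RPKM. Amd1 and Amd2 had nearly the same level in every library (15.41 and 15.44 RPKM in WT vehicle), so they may not be separate measurements. Oaz2 was matched to the name Oaz2-ps. Of the 19, 3 were at least 1.5-fold higher and 0 lower in both genotype comparisons, and 0 reached 1.5-fold in the SD comparisons. The count of 3 of 19 is near the share of all gene names that were higher, 13.1% under vehicle and 15.8% under SD. The counts of 0 stand beside 4.34% and 7.85% of gene names lower, and 1.89% and 2.17% past 1.5-fold with SD, so they too are near the background. Besides Sat1 these were Odc1, the first enzyme of the pathway (log2 difference 0.95 under vehicle and 1.04 under SD), and Sat2 (0.62 and 0.84). Spermidine synthase Srm was at 15.4 and 15.0 RPKM in WT and at 19.2 and 18.2 RPKM in G93A. Spermine synthase Sms, which consumes spermidine, was at 32.9, 33.3, 23.1 and 22.6 RPKM in the same order. Neither Srm nor Sms reached 1.5-fold. Sms was just short of it under SD, with a log2 difference of -0.56, and had -0.51 under vehicle.

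Diphthamide is a modified residue made on a single translation factor, eEF2, and 7 genes of its synthesis served as a comparison for Dhps and Dohh. None of the 7 reached 1.5-fold in any of the 4 comparisons, beside 17.4% of all gene names for the genotypes under vehicle, 23.7% under SD, and 1.89% and 2.17% for SD in WT and in G93A. Their median log2 difference was 0.046 under vehicle and 0.16 under SD, and -0.020 for SD in WT.

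The gene names whose pattern over the 4 libraries was closest to each gene were found among 8847 names with a mean of at least 5 RPKM, by the largest difference in centred log2 level. For Eif5a2 they were Ppm1e (0.030), Gfod1 (0.040) and Ankrd34b (0.041), and 62 names were within 0.1. Ppm1e, a protein phosphatase, was at 28.9, 30.6, 17.9 and 14.8 RPKM in the 4 libraries. For Eif5a the closest were Pcnxl3 (0.0058), Brd7 (0.014) and Gsn (0.017), and 1123 names were within 0.1, so its flat pattern was common. For Dhps they were Ptprg (0.018), Chfr (0.020) and Srsf5 (0.029), with 423 names within 0.1. For Dohh they were Fndc4 (0.016), Fahd1 (0.017) and Maged1 (0.017), with 440 names within 0.1.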

How the data were processed

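PolyA RNA of lumbar spinal cord was sequenced as 53 bp reads. The authors deposited 1 table with 1 value column per library. The deposited values were read as RPKM because they behave so (their products with transcript length gave nearly equal sums across libraries), and no source used here names the unit. The authors' methods give STAR alignment to GRCm38 and HTSeq counting on Ensembl genes, while the table lists RefSeq transcripts, and the step to RPKM is not stated. The authors' ratio columns, which hold their comparisons, were not used.

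Conditions came from the sample labels, with 1 library each, so no test was made and no p-value is given. The rows of a gene name were averaged, and log2(RPKM + 0.1) was compared between libraries, which understates differences of low genes. The threshold was 1.5-fold, and the background was names whose mean reached 1 RPKM. The members and the gene lists were chosen with earlier results of these data known.

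All 4 genes are named. In the polyamine and translation factor lists, the genes named are up to 3 of the highest and 3 of the lowest past 1.5-fold per comparison. Odc1, Srm, Sms, Sat1, Eef1a1, Eef1a2 and Eef2 were named in any case. Eif4a2 was added for its paralog pair, and Amd1, Amd2 and Oaz2 for the limits of their entries. The 3 names closest in pattern are given per gene. Of the partner and diphthamide lists, members past 1.5-fold are named with values. List genes absent by symbol were matched by RefSeq accession, for example Rbfox3 as D11Bwg0517e and Map2 as Mtap2.

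Depth was estimated from the step between low values, multiplied by length, of rows under 150 bases, read as 1 aligned base. Between 62.1% and 65.5% of these short-row values were whole multiples of it within 0.02. On transcripts over 500 bases, 593 of 4699 low values (under 500 aligned bases) lay at 216 aligned bases, 195 at 432 and 123 at 108, which reads of 53 bp do not give directly, so no number of reads was derived. No counting interval was derived from this estimate. Sequences and windows came from GENCODE M21 on GRCm38. Alternatives were median-ratio scaling, other pseudocounts, thresholds, filters and row choices, and the paralog shares of Eef1a2 and Eif4a2 and the single rows of Eif5a were added after seeing the data. The work used matplotlib 3.10.9, pandas 2.3.3, numpy 2.4.6 and Python 3.11.15, and the calculations were tested on simulated data.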

Additional observations from a re-analysis of the deposited data

Results flagged for a closer look

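The SD difference of Eif5a2 was positive in WT and negative in G93A, and the G93A value minus the WT value was -0.40 on the log2 scale. Over all gene names this quantity had a 5th percentile of -0.37 and a median of -0.0061. For Dhps the signs were the other way round, and the G93A value minus the WT value was 0.31, below the 95th percentile of 0.45. Each of these differences rests on 4 libraries, 1 per condition, and was not tested. With SD in G93A, all 5 motor neuron markers with a mean of at least 1 RPKM also had a negative difference (median -0.45) and 6 of 6 astrocyte markers a positive one (median 0.22). With SD in WT, the same 5 motor neuron markers were negative too (median -0.18), and 4 of 6 astrocyte markers were negative (median -0.085). The part of these markers was not tested.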

How the results depend on the processing

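No paired analysis was possible because each condition has 1 library. Of 72 log2 differences of the 4 genes recomputed under alternatives, 72 stayed on the same side of 1.5-fold, and Eif5a2 ranged from -0.73 to -0.66 for G93A against WT under vehicle and from -1.12 to -1.05 under SD. The choice of the highest row could not move Eif5a2, Dhps or Dohh, which have 1 row each. Of all 196 recomputed results, 161 kept their value within the limits set for them. With a 2-fold threshold 0 of the 4 genes was lower under vehicle, because Eif5a2 was 1.60-fold lower there. The Eif5a2 share of the paralogs was 33.9%, 36.8%, 22.0% and 19.5% (WT vehicle, WT + SD, then the G93A pair) with the highest row of each name, and 67.8%, 70.5%, 53.7% and 49.9% with values multiplied by transcript length, since the Eif5a2 transcript is longer. The number of gene names past the threshold followed the setting by construction. For G93A against WT under vehicle it was 940 at 2-fold, 4990 at a 25% difference, 3678 without a filter and 1211 at a mean of at least 5 RPKM, in place of 2259. Under SD it was 1321, 5923, 4649 and 1766 in place of 3075. For SD in WT it was 77, 914, 942 and 73 in place of 246, and 104 with a pseudocount of 1 RPKM. For SD in G93A it was 69, 1333, 1031 and 119 in place of 282, and 157 with a pseudocount of 1 RPKM. Genes of the pathway lists past the threshold numbered 1 at 2-fold and 17 at a 25% difference in place of 5 for G93A against WT under vehicle, and 3 and 24 in place of 7 under SD. With median-ratio scaling they numbered 4 under vehicle and 9 under SD, so genes near the threshold depend on the scaling. For SD in WT they numbered 2 without a filter and 0 at a mean of at least 5 RPKM in place of 1, and for SD in G93A 5 at a 25% difference and 0 at a mean of at least 5 RPKM in place of 1. Depth limits Dhps and Dohh most, with an estimated 0.137 to 0.210 aligned megabases per library.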
